A study of Mus musculus with 24 samples.

Results

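The data describe layer 6 corticothalamic projection neurons (Tle4 CThPN) of the mouse cortex on either side of birth, at E18.5 and P1 (E for embryonic and P for postnatal day). Members were genes with at least 10 FPKM (fragment counts corrected for transcript length and library size) at one or both of these ages, after removal of 118 small-RNA and clone symbols by their first letters and of 26 predicted Gm genes listed at 0 throughout a neuron class. They numbered 7678 of the 9767 genes in the expression table, or 78.6%, and another 1945 stayed under 10 FPKM at both ages. Of the members, 361 reached 10 FPKM at P1 alone and 378 at E18.5 alone.

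The neurons were labelled with tdTomato in Tle4-2A-CreERT2:Ai14 mice, whose strain the labels give as C57BL/6 and the study's methods as a mixed background, in which 4-hydroxytamoxifen given to the pregnant dam (1 mg per 10 g of body weight) activates Cre in cells that use the Tle4 gene, and were sorted from somatosensory and motor cortex. Callosal projection neurons of the upper layers (Cux2 CPN), labelled in the same way in Cux2-CreERT2:Ai14 mice, served as the second neuron class, and both were also collected at P3, P7, P21 and P48, which gives 12 groups of 2 libraries each. Each library came from a pool of 5000 to 10000 sorted neurons of male and female animals. Because labelling was induced before E18.5 at every age, the P1 neurons carried the label for longer, and birth, age and time since induction cannot be told apart. The table gives 1 value per gene and group over both libraries, so that no difference has an error, a test or a replicate check, and FPKM keep no read numbers, so that depth is unknown. Every value describes these libraries only.

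At birth the mouse brain passes from the placental supply to air breathing, suckling and a cooler, fluctuating environment, while its cortical neurons are still extending axons and making their first synapses. Corticothalamic neurons are glutamatergic cells that send their axons to the thalamus and rely on transcription factors such as Tbr1, Fezf2, Sox5 and Foxp2 for their identity. The genes were therefore read by role: identity factors, guidance and cytoskeleton, the release machinery, receptors, metabolism, and the genes that respond to activity, temperature or hormones.

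The class labels were checked against their defining genes. Tle4 itself stood at 165 FPKM at E18.5 and 151 at P1, against 7.74 and 6.32 in Cux2 CPN, and Foxp2 at 99.5 and 72.5, against 4.03 and 2.003. Cux2, by contrast, was at 4.65 and 3.62 FPKM in Tle4 CThPN and at 73.0 and 68.4 in Cux2 CPN. Fezf2 was at 82.9 and 70.1 FPKM in Tle4 CThPN, against 3.51 and 3.18 in Cux2 CPN. Tbr1 parted the classes less, at 148 and 142 FPKM against 73.7 and 40.6. Gad1 and Gad2, the GABA-synthesizing enzymes of interneurons, stayed between 0.586 and 1.33 FPKM in Tle4 CThPN at both ages, and were at 18.99 and 18.53 FPKM and at 19.5 and 12.1 in Cux2 CPN, where the part of interneurons in the class differences was not tested. The paper reports few cells positive for either gene among single cells sorted from both classes, and judged their effect on its own results to be minimal. Of the markers of other cell types, the summed FPKM of 11 listed astrocyte genes was 147 at E18.5 and 231 at P1, that of 9 radial glia and progenitor genes 348 and 286, that of 6 microglial genes 26.9 and 30.8, and that of 4 blood genes 6.32 and 7.68. The 9 endothelial and mural genes summed to 238 and 298, mostly from Bsg, the 14 interneuron genes to 1358 and 838, mostly from Npy, the 7 oligodendrocyte genes to 31.6 and 19.2, and both meningeal genes together to 112 and 54.5, mostly from Igfbp2. The part of other cells in any change below was not tested, and in pooled samples fewer cells of a type and less RNA per cell cannot be told apart.

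Most genes moved little across birth. The change, taken as log2(FPKM + 1) at P1 minus the same at E18.5, which understates the change of low genes, had a median of 0.06 over all members, with an interquartile range of -0.17 to 0.26, and 57.8% of members were above 0. By at least 1 log2, that is about a doubling, 105 genes were higher at P1 (1.37% of members) and 46 were lower (0.599%). By at least 0.5 log2, 606 were higher (7.89%) and 493 lower (6.42%), and these shares are the background of every list count below. Scaling by median ratios took the median to -0.0027. In Cux2 CPN, over the same genes, the median was -0.01 (0.0053 with that scaling), 48.9% were above 0, and 164 genes were higher (2.14%) and 84 lower (1.09%) by at least 1 log2. Among the Tle4 CThPN genes past 1 log2 were 9 of the higher and 11 of the lower that are short RNAs with exons of up to 300 nt, such as U6 and 5S ribosomal RNA. These led both ends: 8 of the 20 largest rises and 10 of the 20 largest falls were short RNAs, all but Rnu3a listed at 0 in one of the 2 ages. The rest of the text counts the other 96 higher and 35 lower genes, of 7639. Genes that reached 10 FPKM at one age alone had to differ between the ages, and of the 6939 that reached it at both, 42 were higher and 14 lower by at least 1 log2, 58.7% were above 0, 5.95% passed 0.5 log2 upward and 4.57% downward. Where leaving out such genes turned a list median given below or moved it by more than 1.5 times, the value over genes at 10 FPKM at both ages is given too.

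**Figure D1:**
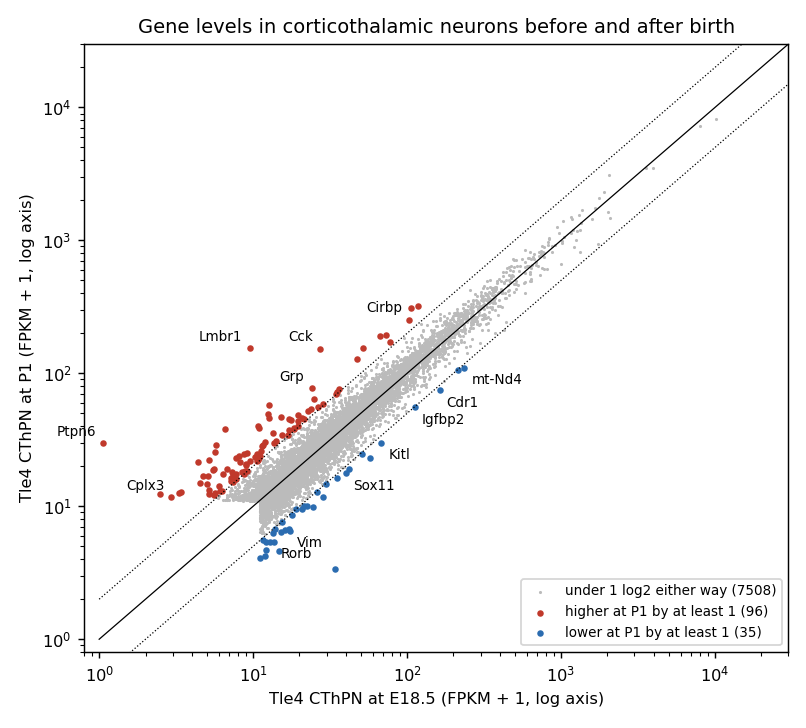
Level of each of 7639 genes in Tle4 CThPN at E18.5 (horizontal) and P1 (vertical), as FPKM + 1 on log axes; each point is 1 gene, with 1 value per group over 2 libraries. The solid line marks equal levels and the dotted lines a doubling or halving of FPKM + 1; the 96 higher genes (red) and the 35 lower genes (blue) are mostly of low to middle level, with Cirbp among the highest risers and mt-Nd4 and Cdr1 among the highest fallers.

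The change, taken with its sign, went with the base composition of the transcript. Over 7428 genes with an annotated protein-coding transcript, the change correlated with the GC content of the longest one (Spearman's rho 0.42 in Tle4 CThPN and 0.28 in Cux2 CPN, across genes, which share the libraries and are not independent replicates) and less with its length (rho -0.23 and -0.26). The median change climbed from -0.24 in the lowest of 10 equal GC classes to 0.23 in the highest. The genes higher at P1 by at least 1 log2 had a median GC content of 55.9%, those lower 45.6%, and all genes 50.5%. Of the 7405 genes that could be placed in a GC class, 85 were higher and 30 lower by at least 1 log2 as measured, and 63 and 31 when each was set against the median of its class. The part of base composition in single results was not tested, and where centring moved a list median given here by more than 1.5 times the centred value stands beside it.

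**Figure D2:**
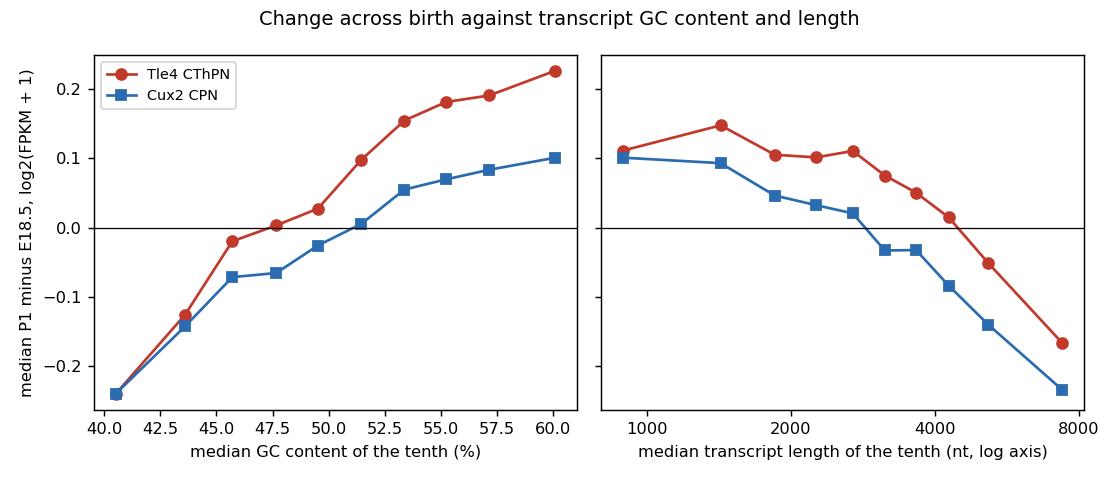
Median P1 minus E18.5 change, in log2(FPKM + 1), of genes split into 10 equal classes by the GC content (left, in %) or the length (right, in nt, log axis) of the longest protein-coding transcript, in Tle4 CThPN (red circles) and Cux2 CPN (blue squares). Each point is the median of 742 or 743 genes; in Tle4 CThPN it goes from -0.24 to 0.23 with GC content and from 0.11 to -0.17 with length.

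Cck and Grp, which encode neuropeptide precursors, were higher after birth, whereas Npy, another such precursor, went from 1334 to 816 FPKM. Cck (chr9:121398943-121404807 on the minus strand of NCBIM37, 848 nt of exons), the precursor of the neuropeptide cholecystokinin, stood at 26.4, 152, 269.9, 289, 258 and 356 FPKM from E18.5 to P48, so that most of its gain fell between E18.5 and P3. Its P1 level was 5.77-fold that of E18.5, a change of 2.48 log2, against 1.74 in Cux2 CPN. Grp, the precursor of gastrin-releasing peptide, had 22.997, 76.3, 131, 183, 229.7 and 119 FPKM over the 6 ages. Grp was also higher at P1 in Cux2 CPN, by 2.03 log2.

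Several other genes with large rises encode signalling proteins, and they were not picked by size alone and were counted against no list. Prkcc, protein kinase C gamma, went from 11.8 to 56.3 FPKM (2.17 log2) and kept climbing to 389 at P21. Rasgrp2, an exchange factor for the small GTPase Rap, went from 11.5 to 48.9 (2.00 log2), reached 154 at P7 and was back at 13.2 at P21, whereas its relative Rasgrp1, which acts on Ras, went from 4.59 to 18.005 and reached 231 at P21. Gng4, a G protein gamma subunit, and Rem2, a GTPase that restrains calcium channels, went from 4.68 to 24.7 and from 3.38 to 20.6. Arhgdig, an inhibitor of small GTPase cycling, was at 51.1, 155, 309, 678, 264 and 213 FPKM, highest at P7. Hpca, a neuronal calcium sensor named after its values were seen, went from 72.3 to 193 and on to 527 at P7. Actn2, an actin crosslinker, and Ache, the enzyme that degrades acetylcholine, were at 1.497 and 11.5 FPKM and at 3.73 and 15.8. Trbc2, a constant region of the T cell receptor that has a near-identical copy with which it may share reads, stood at 5.61, 37.1, 78.5, 126, 188 and 166 FPKM, higher at every later age than at E18.5.

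The ages after P1 differed among these genes. Across the 96 higher genes, the median level was 9.59 FPKM before birth and 24.5 at P1, then 32.5, 48.5, 52.4 and 48.9 at the later ages in turn. The age with the highest value was P1 for 11 of them and P3 for another 3, while 35 peaked at P7, 28 at P21 and 19 at P48, and a gene chosen as higher at P1 cannot have its highest value at E18.5. Over all 7639 genes the highest value fell at P1 in 14.0%, at P7 in 18.2% and at P21 in 15.6%.

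**Figure D3:**
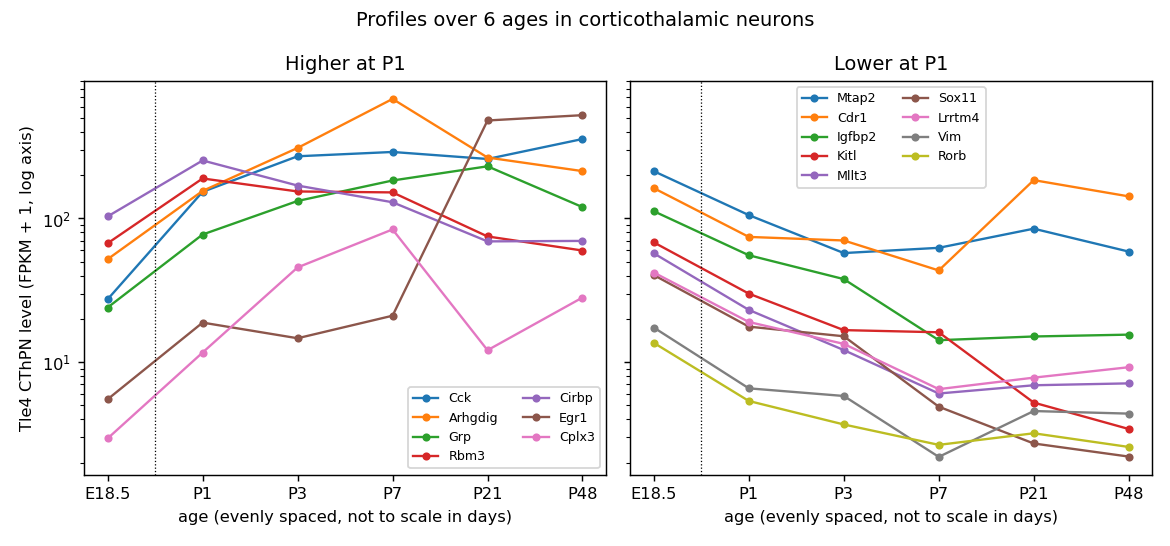
Levels of 7 genes higher at P1 (left) and 9 genes lower at P1 (right) in Tle4 CThPN at 6 ages, as FPKM + 1 on a log axis, with 1 value per age over 2 libraries and the dotted line at birth; ages are evenly spaced. Arhgdig climbed to P7, Egr1 was higher at P1 than at E18.5 and higher again at P21, Rbm3 and Cirbp were highest at P1, and Cdr1 was the one falling gene shown that was above its E18.5 level later.

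Among the 11 genes highest at P1, a pair stood apart. Ptpn6, a tyrosine phosphatase best known from blood cells, was listed at 0.0601, 28.8, 0.287, 0.262, 0.564 and 0.187 FPKM, and Lmbr1 at 8.49, 153, 10.9, 12.5, 9.901 and 9.96 FPKM from E18.5 to P48. Their P1 values in Tle4 CThPN were above those of all 11 other groups by at least 4.25 and 3.04 on the log2(FPKM + 1) scale. Only 13 of 9547 genes in the table had a gap of 2 log2 or more of this kind in any group, and 2 of these gaps were at P1 in Tle4 CThPN. With no values per library, whether 1 or both libraries carried these levels is unknown. The summed level of the 4 blood genes beside them was 7.68 FPKM at P1.

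The genes named next, all lower at P1 by at least 1 log2, were likewise not picked by size alone. Sox11, a transcription factor of newborn neurons, was at 39.3, 16.7, 14.1, 3.896, 1.72 and 1.201 FPKM over the 6 ages, with a change of -1.19 log2 across birth and -1.35 in Cux2 CPN. Mllt3, a reader of acetylated histones in a transcription elongation complex, stood at 56.2, 22.1, 11.1, 5.05, 5.902 and 6.12 FPKM, and Mtap2, the dendritic microtubule protein MAP2, at 212, 105, 56.4, 61.5, 83.9 and 57.8. Kitl, the ligand of the Kit receptor, went from 67.1 to 28.98 and Lrrtm4, a synaptic adhesion protein, from 41.02 to 18.03 FPKM, both falling on to P7. Igfbp2, a carrier of insulin-like growth factors that meningeal cells also make, went from 111 to 54.5. Vim, an intermediate filament of progenitors and glia, was at 16.4, 5.57, 4.81, 1.19, 3.57 and 3.38 FPKM (-1.40 log2), beside a sum of 348 and 286 for the 9 progenitor genes. Ptprz1, another progenitor gene, went from 28.9 to 13.8.

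Other lower genes had varied roles. Zfp462, a zinc finger protein, went from 10.1 to 3.05 FPKM and was at 0.415 by P7, and Abca8a, an ABC transporter, went from 13.7 to 3.62. Dhx40, a putative RNA helicase, went from 16.2 to 5.72. Cdr1 went from 161 to 73.4 and was at 184 FPKM at P21, and since the library kit keeps no strand its reads cannot be told apart from those of antisense RNA at the same place. RP23-381B19.7.1, a clone-named gene at 32.97 FPKM at E18.5 and 2.95 or less at all later ages, had the largest fall of the 35 (-3.34 log2), but was not found in the annotation, so that its class and length are unknown. Across the 35 lower genes the median level was 19.8 FPKM before birth and 8.46 at P1, then 8.13, 5.101, 6.799 and 7.01 at the later ages in turn, and 28 of them had their highest value at E18.5, which the choice of genes as lower at P1 favours.

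The machinery of transmitter release moved up as a group. Of 25 listed synaptic vesicle and release genes, 23 were higher at P1, against 57.8% of all members, with a median change of 0.44 against 0.06, and 10 passed 0.5 log2, against 7.89% of members. Doc2a, a calcium sensor for release, went from 12.4 to 34.3 FPKM (1.40 log2) and Rph3a, the Rab3 effector rabphilin, from 10.99 to 29.3 (1.34). The abundant members changed by less: Snap25, a SNARE of the plasma membrane, went from 364 to 427, Vamp2, the SNARE of the vesicle, from 164 to 260.3, and Rab3a, a vesicle GTPase, from 243 to 299. Rims1, an active zone scaffold, and Syt4, an atypical synaptotagmin, were the 2 lower members, at 18.3 and 14.7 and at 23.04 and 14.2 FPKM. Cux2 CPN had a list median of 0.38, with 22 of 25 higher. The 3 lower there were Syn3, a synapsin, Syt11, a synaptotagmin, and Rph3a, which went from 23.1 to 18.6, from 134 to 120.4 and from 8.63 to 7.29 FPKM.

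Receptor and postsynaptic genes had no common direction. Among 13 listed AMPA, NMDA and kainate receptor genes and partners, 6 were higher and 7 lower, with a median of -0.13 that became -0.0034 after centring on GC classes and 0.18 over the 11 that reached 10 FPKM at both ages. NMDA receptor subunits parted: Grin1, the obligatory subunit, went from 17.4 to 37.8 FPKM (1.08 log2), while Grin2b, the subunit of young synapses, went from 37.7 to 18.8 (-0.97 log2). Gria2 and Gria3, AMPA receptor subunits, went from 49.9 to 33.4 and from 42.5 to 23.1, and Nptxr, a pentraxin receptor that takes part in clustering AMPA receptors, from 10.3 to 24.9. Of 18 postsynaptic scaffold and calcium signalling genes 9 were higher and 9 lower, and the sign of their median of 0.08 turned to -0.0057 after the same centring. Nrgn, the calmodulin-binding protein neurogranin, went from 14.5 to 33.1 and Camk4, a calcium-activated nuclear kinase, from 9.34 to 22.5. Dlg4, the PSD-95 scaffold, went from 18.2 to 28.7, whereas Kalrn, an exchange factor of dendritic spines, went from 26.7 to 17.4.

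Adhesion molecules of the synapse were more often lower than higher. Of 19 listed genes 13 were lower and 6 higher (2 after centring on GC classes), against 57.8% of all members higher, and 2 passed 0.5 log2 downward, against 6.42% of members, with a median of -0.30 in Tle4 CThPN (-0.20 after centring) and 0.05 in Cux2 CPN (0.13 after centring). Cadm1 and Cadm2, which bridge the cleft, went from 161 to 123 and from 121 to 79.9 FPKM. Ptprs, a receptor phosphatase of axons, was the one member past 0.5 log2 upward, at 109 and 157. Of 17 voltage-gated channel genes 8 were higher and 9 lower, with a median of -0.03 (-0.06 after centring). Kcnip4, a potassium channel partner, went from 8.19 to 24.4, while Scn3a, the embryonic sodium channel, went from 27.98 to 17.9. Of 9 GABA receptor and chloride transporter genes 5 were higher and 4 lower, with a median of 0.14 (8 of 9 above 0 after centring, median 0.16), which was -0.04 over the 7 that reached 10 FPKM at both ages. Gabrb2, a subunit of the GABA-gated channel, went from 32.6 to 25.7. Slc12a5, the KCC2 transporter that lowers chloride in maturing neurons, was at 8.21 and 13.3 FPKM (0.63 log2), and Gabbr2, a metabotropic GABA receptor subunit, at 20.3 and 37.3.

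Nearly all genes of cholesterol synthesis were higher after birth, and none by 1 log2. Neurons and glia make their own sterols, since blood lipoproteins do not cross into the brain, and the enzymes act in series from acetyl-CoA to cholesterol. Of 21 listed genes of synthesis and uptake, 20 were higher at P1, against 57.8% of all members, with a median change of 0.44, against 0.06 for all members and 0.12 for the same list in Cux2 CPN, where 15 of 21 were higher. Mvk, mevalonate kinase, went from 16.1 to 32.02 FPKM (0.95 log2), Fdps, which makes farnesyl diphosphate, from 256 to 420.4 (0.72 log2), and Mvd, which makes isopentenyl diphosphate, from 32.03 to 52.01. Srebf2, the transcription factor of the pathway, moved less, from 65.7 to 85.004. Insig1, which holds that factor back when sterols are plentiful, went from 18.4 to 30.2, and Sc5d was the 1 member that was lower, at 35.6 and 33.9. Of the 21 genes 7 passed 0.5 log2, against 7.89% of members, and after centring on GC classes all 21 were above 0, with a median of 0.35.

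The promoters of these genes can be read for a shared element. Windows of 300 bases, from 250 before to 50 after an annotated start (RefSeq, build GRCm38.p6), were available for 15 of the 21 genes. The letters CCAAT, searched on both strands, were present in 14 of the 15 and missing in that of Acat2, while they were found for 41.1% of the 27025 gene symbols with a window and 43.8% of the 5525 measured members among them. A match is a string of letters, not a site in use, and nothing was tested. The windows of the genes with the largest rises are given as 30 bases on the strand of the gene, with the CCAAT letters, or ATTGG where the match is on the other strand, in capitals. Where a window held several matches, as that of Mvk with 5, the 1 nearest a fixed point before the start was taken and its bases are given.
Mvk (chr5:114444190-114444219, + strand): cttgaagttcccATTGGttaatgtttgacc
Insig1 (chr5:28071184-28071213, + strand): cgccctcctcccATTGGctccggcggcctc
Mvd (chr8:122443465-122443494, - strand): ggcctgtcgcctATTGGacagcacgggaaa
Tm7sf2 (chr19:6067880-6067909, - strand): ctcccagcgctgATTGGctactgtgctggg
Lss (chr10:76531531-76531560, + strand): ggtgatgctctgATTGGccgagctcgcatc
Hsd17b7 (chr1:169969261-169969290, - strand): tgccgagtcgcgATTGGcgggcctaacgcg
Dhcr7 (chr7:143830117-143830146, + strand): tcactgccttcaCCAATcacaggacgcagc
The match given began 67 bases before the start in Mvk, 60 in Mvd, 47 in Tm7sf2, 62 in Lss, 73 in Hsd17b7, 85 in Dhcr7 and 216 in Insig1. The windows of Mvk, Mvd, Hsd17b7 and Dhcr7 held several matches, so that the nearness of their positions was part of the choice.

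Nuclear and mitochondrial genes of respiration parted. Of 75 nuclear genes for respiratory chain subunits 73 were higher at P1, against 57.8% of all members, with a median of 0.21 (0.13 after centring on GC classes, with 59 of 75 above 0), 1 passed 0.5 log2, against 7.89% of members, and their summed level went from 18453 to 21687 FPKM. Cux2 CPN had a median of 0.16 for the same list. Of the 14 mitochondrially encoded genes 12 were lower in Tle4 CThPN, with a median of -0.35, and their sum went from 18236 to 13922 FPKM, while in Cux2 CPN the median was 0.04 (0.21 over the 11 that could be centred) and the sum went from 15217 to 14635. mt-Nd4, a subunit of the first respiratory complex, went from 234 to 109 FPKM (-1.09 log2) and mt-Cytb, of the third, from 1743 to 939. These transcripts are poor in GC, with a median content of 37.1%, and centred on GC classes the median of the 11 that could be placed was -0.07. Cytosolic ribosomal protein genes had a median of -0.11 (-0.22 after centring), with 51 of 71 lower and none past 0.5 log2.

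The values of genes induced by neuronal activity rested on members of low level. Of 13 listed immediate early genes 9 were higher (8 after centring on GC classes), against 57.8% of all members, with a median of 0.28, which was 0.13 after centring. Since Egr1, Junb, Nr4a1 and Ppp1r15a reached 10 FPKM at P1 alone, their rises were part of the choice of members, and over the 9 genes at 10 FPKM at both ages 5 were higher, 2 passed 0.5 log2 upward and the median was 0.0053. Egr1, a transcription factor induced by calcium entry, stood at 4.52, 17.8, 13.7, 20.05, 479.8 and 523 FPKM over the 6 ages and Nr4a1, a nuclear receptor of the same kind, at 2.29, 11.5, 8.76, 7.06, 143 and 149.8, so that both were 3.95-fold and 5.03-fold higher at P1 than at E18.5 and many times higher again at P21. Junb went from 6.26 to 12.3 FPKM. Dusp1 and Ier5 were at 36.98 and 35.5 and at 40.02 and 27.2, both under the E18.5 level. In Cux2 CPN, Egr1 went from 4.65 to 21.5 and the list median was 0.42.

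Cirbp and Rbm3, both RNA-binding proteins induced by cold, had their highest value at P1. Cirbp stood at 102, 252, 168, 129, 68.3 and 68.8 FPKM and Rbm3 at 66.2, 189, 153, 151, 73.97 and 58.8, the latter named after its values were seen. Their changes across birth were 1.29 and 1.498 log2 in Tle4 CThPN and 0.69 and 0.88 in Cux2 CPN, where E18.5 levels were 179 and 118 FPKM and P1 levels 289 and 219. Members of the heat shock and unfolded protein list had a median of -0.08 (-0.15 after centring on GC classes), with 8 of 18 higher, although Cryab, a small heat shock protein outside that list, went from 9.81 to 39.5 FPKM and reached 156 at P7.

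Clock genes were higher by less than in the callosal neurons. The study's methods give no hour of collection, and its part in these values was not tested. Of 10 listed genes 8 were higher in Tle4 CThPN, against 57.8% of all members, with a median of 0.26 (0.13 over the 7 at 10 FPKM at both ages), and all 10 in Cux2 CPN, against 48.9%, with a median of 1.27. Nr1d1, a repressor of the clock, went from 16.5 to 21.8 FPKM in Tle4 CThPN and from 6.03 to 26.6 in Cux2 CPN, and Npas2, a partner of Bmal1, from 16.6 to 25.9 and from 6.67 to 26.1. Arntl, which encodes Bmal1, went from 26.5 to 22.4 and from 10.9 to 28.8. Gm129, a clock repressor also known as Ciart, had the largest rise of the list in Tle4 CThPN, from 6.17 to 14.4, and a larger fall was that of Rorb (-1.34 log2), which is also among the upper-layer genes below.

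Genes linked to hormones were read in lists that share Klf9. All 5 measured genes of the thyroid hormone list were at or above their E18.5 level, 4 of them by at least 0.5 log2, against 7.89% of members, with a median of 0.65 (0.49 after centring on GC classes, with 4 of 5 above 0) and of 0.69 in Cux2 CPN. Besides Nrgn and Cirbp, they included Klf9, a factor that thyroid hormone and glucocorticoids induce and which reached 10 FPKM at P1 alone, from 9.82 to 15.9 FPKM, and Thra, a receptor of the hormone, at 359 FPKM at both ages. Of 8 genes induced by glucocorticoids 4 were higher and 4 lower, with a median of 0.04 that became -0.0450 after centring. Cdkn1a, a cell cycle inhibitor of that list, went from 12.7 to 28.7, Fkbp5 and Sgk1 went from 22.2 to 25.7 and from 67.9 to 74.9, and Tsc22d3, a target of the glucocorticoid receptor, went from 38.7 to 33.8. Of 10 genes of the amino acid response 7 were higher, against 57.8% of all members, with a median of 0.22 (0.07 after centring). Among them, Slc7a5, a transporter of large neutral amino acids, went from 18.49 to 42.6 and Asns, asparagine synthetase, from 51.6 to 92.2.

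Most identity genes of the class were lower at P1, and none by 1 log2. Of 18 corticothalamic and layer 6 genes 14 were lower and 4 higher, against 57.8% of all members higher, and Nfib and Sox5 passed 0.5 log2 downward, against 6.42% of members, with a median of -0.18. In Cux2 CPN 13 of the 18 were lower, with a median of -0.13. Tbr1 went from 148 to 142 FPKM, Fezf2 from 82.9 to 70.1, Bcl11b, which encodes CTIP2, from 76.9 to 67.6, Foxp2 from 99.5 to 72.5 and Sox5 from 580.4 to 401. Nfib, a nuclear factor of deep-layer development, had the largest fall, from 422 to 212 (-0.99 log2). Nxph3, a neurexophilin, was the one gene past 0.5 log2 upward, at 80.5 and 123. The 4 measured subplate genes were above their E18.5 level, as were 57.8% of all members, 2 of them by at least 0.5 log2, against 7.89%, with a median of 0.68 and 3 of 4 above 0 after centring on GC classes. Cplx3 reached 10 FPKM at P1 alone, and of the other 3 genes 1 passed 0.5 log2, with a median of 0.31. In Cux2 CPN the subplate genes summed to 10.7 and 7.75 FPKM, too low for a comparison. Cplx3, a complexin of subplate cells, stood at 1.95, 10.7, 44.6, 82.9, 11.1 and 27.2 FPKM and Ctgf, a secreted matrix protein of the same layer, at 17.5, 37.2, 84.3, 70.4, 35.7 and 54.1. All 7 upper-layer genes were at or under their E18.5 level (1 was above 0 after centring), against 57.8% of all members higher, with a median of -0.49. Lhx2 and Rorb, transcription factors, reached 10 FPKM at E18.5 alone, Rorb going from 12.6 to 4.37, and the median of the other 5 was -0.38.

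The factors of early neuronal differentiation were lower by more than the class factors. Of 13 genes 9 were lower, 6 of them by at least 0.5 log2, against 6.42% of members, with a median of -0.33 in Tle4 CThPN and -0.36 in Cux2 CPN. Besides Sox11, Zeb2, a repressor active in young neurons, went from 173 to 86.6 FPKM, Neurod6 from 369 to 200.1 and Sox4 from 438 to 242, the last a close relative of Sox11. Id2, an inhibitor of such factors, was at 906 and 917. Growth-related genes split. Of 36 axon growth and guidance genes 18 were higher and 18 lower, with a median of -0.02 that became -0.13 after centring on GC classes, and with Gap43, a growth cone protein, from 582 to 848, Ephb2, an ephrin receptor, from 9.85 to 22.97, and Nrcam and Robo1, axonal receptors, from 84.5 to 47.5 and from 12.9 to 7.27. Ephb2 reached 10 FPKM at P1 alone and Robo1 at E18.5 alone, so that their directions were part of the choice of members. Over the 30 genes at 10 FPKM at both ages 15 were higher and 15 lower, with 2 past 0.5 log2 each way. The microtubule genes had a median of -0.02 (-0.16 after centring, and -0.03 over the 25 at 10 FPKM at both ages): Tuba1a, the main tubulin of young neurons, went from 7997 to 7277 and Dcx, doublecortin, from 175 to 113, while Tuba4a, an alpha-tubulin of mature neurons, went from 7.08 to 23.02 and on to 977 at P21. Across birth, Tuba4a reached 10 FPKM at P1 alone.

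**Figure D4:**
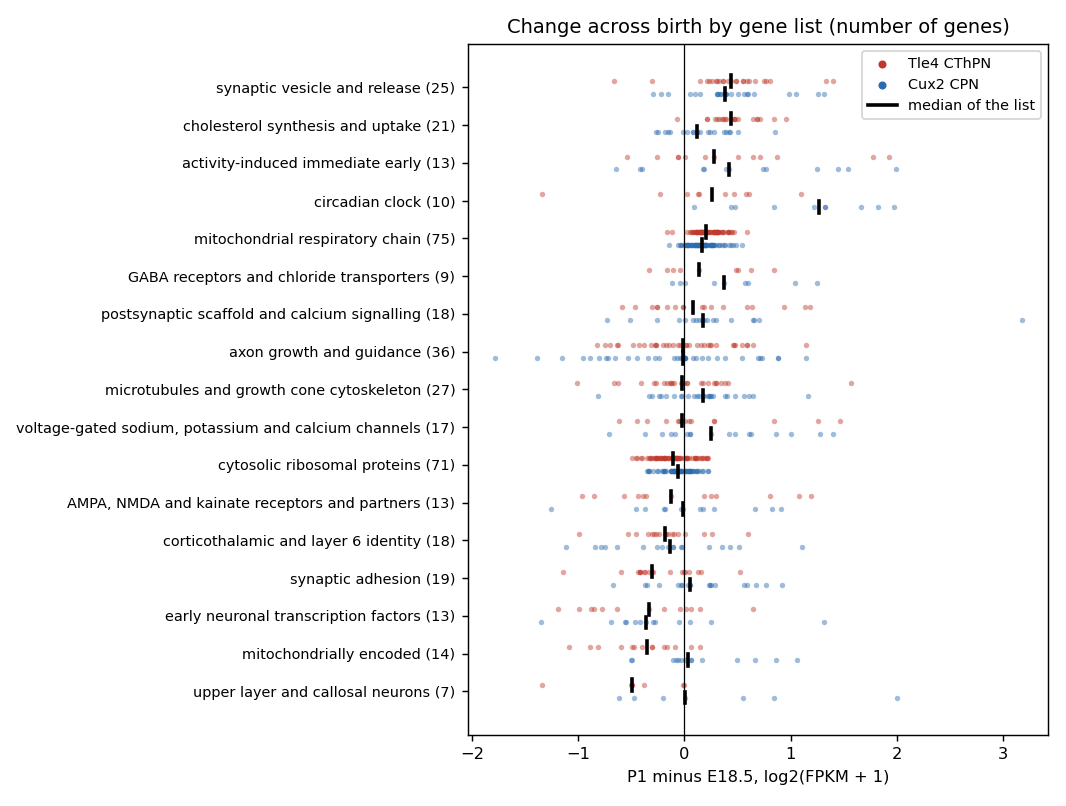
Change across birth of the members of 17 gene lists, in log2(FPKM + 1) at P1 minus E18.5, with 1 point per gene, in Tle4 CThPN (red, upper row of each list) and Cux2 CPN (blue, lower row); black bars mark the medians and numbers in parentheses the genes. Release and cholesterol genes lie almost wholly to the right of 0 in Tle4 CThPN (medians 0.44 and 0.44), upper-layer genes at or to the left of it (-0.49), and clock genes lie farther right in Cux2 CPN (1.27) than in Tle4 CThPN (0.26).

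Over all genes the 2 neuron classes changed alike in part. They share no library, and across 7639 genes the changes correlated with Pearson's r 0.63 and Spearman's rho 0.65, given as a description, since the genes share libraries and base composition. Of the 96 genes higher in Tle4 CThPN 45 were also higher by at least 1 log2 in Cux2 CPN, which is 46.9% of the first list and 27.6% of the 163 in the second. Of the 35 lower genes 9 were shared, or 25.7% and 11.0% of the 82 lower in Cux2 CPN. The change in Tle4 CThPN exceeded that in Cux2 CPN by at least 1 log2 in 62 genes (0.808% of members, 50 without short RNAs) and fell short of it by as much in 100 (1.3%, 87 without short RNAs).

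The genes whose change was higher in Tle4 CThPN than in Cux2 CPN by the largest amounts, taken with sign, included Ptpn6 and Lmbr1, described above. B230307C23Rik was next, from 31.05 to 36.8 FPKM against from 77.03 to 14.2 in Cux2 CPN, where it was back at 86.3 at P3. Then came Gm13889, from 3.49 to 14.1 FPKM against from 22.97 to 13.9 in Cux2 CPN, and Nrp1, a receptor for semaphorins, from 8.94 to 14.5 against from 25.4 to 6.64. Sstr2, a somatostatin receptor, went from 18.9 to 28.8 against from 20.6 to 5.96. Ece1, which processes endothelin, went from 9.53 to 23.9 against from 17.8 to 12.5, and Igfbp4, a carrier of insulin-like growth factors, from 5.77 to 11.1 against from 32.01 to 17.2. On the other side, Nrgn went from 14.5 to 33.1 against from 4.34 to 47.4, so that it was higher after birth in both, with a difference of -2.04 log2 between the changes. Lpl, lipoprotein lipase, held at 14.8 FPKM at E18.5 and 14.8 at P1 while it went from 28.5 to 117 in the callosal neurons. Cdh6, a type II cadherin, and Rorb were lower in Tle4 CThPN (from 22.3 to 11.7 and from 12.6 to 4.37) and higher in Cux2 CPN (from 12.1 to 30.4 and from 9.99 to 18.8).

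Movement of at least 0.5 log2 in opposite directions was seen in 18 of 7639 genes (0.236%), 10 of them up in Tle4 CThPN and down in Cux2 CPN, and 8 the reverse. In 9 of the 18 the direction in Tle4 CThPN was part of the choice of members, since 6 of the 10 reached 10 FPKM at P1 alone, Nrp1 and Plxna4 among them, and 3 of the 8 at E18.5 alone, Rorb and Eif2s3y among them. The first set also held Plxna4, a co-receptor of Nrp1 for semaphorins, from 8.93 to 13.9 FPKM against from 92.1 to 55.6. The second set held Npy, the precursor of neuropeptide Y, at 1334, 816, 614, 148, 73.4 and 3.97 FPKM over the 6 ages in Tle4 CThPN and from 233 to 415 across birth in Cux2 CPN. Npy is best known from interneurons, and the high level in Tle4 CThPN stood beside Gad1 and Gad2 at no more than 1.33 FPKM. It also held Eif2s3y, a gene of the Y chromosome, from 19.8 to 8.59 against from 18.03 to 31.7, in libraries that pool both sexes.

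**Figure D5:**
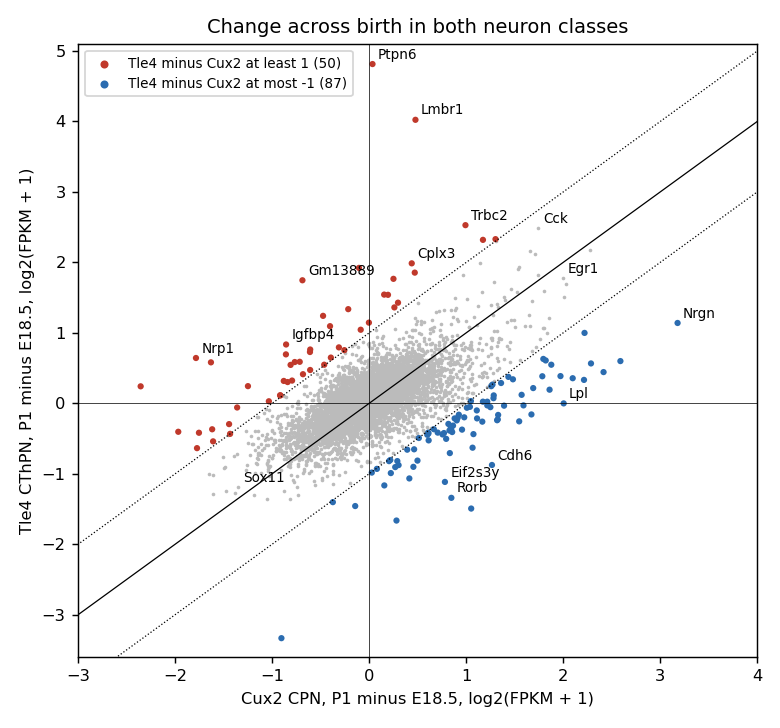
Change across birth of 7639 genes in Cux2 CPN (horizontal) and Tle4 CThPN (vertical), both as log2(FPKM + 1) at P1 minus E18.5, with 1 point per gene. The solid line marks equal changes and the dotted lines a difference of 1 log2; 50 genes lie above them (red) and 87 below (blue), and Ptpn6 and Lmbr1 stand far above with changes in Cux2 CPN of 0.03 and 0.48.

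Genes at the limits changed by nearly the same amounts on either side. Crtac1, at 7.78 and 16.6 FPKM, lay just inside the limit of 1 log2 for higher genes and Selm, at 13.2 and 27.4, just outside it. Ptpn4, at 14.4 and 6.68 FPKM, lay just inside the limit for lower genes and Zfp882, at 13.7 and 6.37, just outside. At the minimum level, Zkscan5 entered with 10.005 FPKM at E18.5 and Poc1b stayed out with 9.994.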

How the data were processed

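RNA-seq had been performed by the authors on 10 ng of RNA per library (SMART-Seq v4 and Nextera XT), with reads trimmed by Trimmomatic, aligned by TopHat2 to build mm9 (NCBIM37) and summarised by Cuffdiff. The deposited table gives these FPKM, 1 value per group over its 2 libraries, and lists genes with 10 FPKM or more in some group. The option used to normalize between libraries is not given in the sources used here. The number of reads behind a value is unknown, and no interval, test or replicate comparison could be made.

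From the FPKM, log2(FPKM + 1) and its difference between P1 and E18.5 were computed with Python 3.11.15, numpy 2.4.6 and pandas 2.3.3, with matplotlib 3.10.9 for the figures. The Tle4 CThPN and Cux2 CPN columns were matched to groups by the names in the labels. The members and the gene lists were chosen with earlier results of these data known. Named genes were the 20 largest changes each way, list members past 1 log2 or highest in FPKM, the 10 largest class differences each way, the genes that check the labels, and genes next to a limit; examples within lists beyond these, and the others so marked, were chosen after their values were seen. Short RNAs were members whose exons span no more than 300 nt or that are of a small-RNA type. Transcript GC content, length and positions were read from GENCODE's NCBIM37 annotation, where 7628 members were found by symbol. Of the members, 34 share a symbol with another row and 19 have a date in place of a symbol. Promoter windows are RefSeq's and were matched by symbol. The values of some members are not reported here.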

Additional observations from a re-analysis of the deposited data

Results flagged for a closer look

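In 11 genes the classes moved at least 0.5 log2 in opposite directions across birth and the changes differed by at least 1.5 log2, which is 0.144% of 7639. Of these, Gm13889, Nrp1 and Igfbp4 reached 10 FPKM in Tle4 CThPN at P1 alone and Gm7335, Rorb and Eif2s3y at E18.5 alone, so that their direction there was part of the choice of members. With 1 value per group, none of these differences was tested, and each is given as the Tle4 CThPN change minus the Cux2 CPN change. The changes of Gm13889, Nrp1, Sstr2, Igfbp4 and Shb, an adaptor of tyrosine kinase signalling, were higher in Tle4 CThPN, by 2.43, 2.43, 2.21, 1.69 and 1.55 log2. The differences were negative for Gm7335 (-2.55), Rorb (-2.19), Cdh6 (-2.14), Eif2s3y (-1.90), Trpm3, a cation channel (-1.70), and Npy (-1.54). Gm7335 is listed at 0 in Cux2 CPN at E18.5 and at 1.07 FPKM at P1, so its value there rests on a very low level. Of the semaphorin receptor Nrp1 the levels were 8.94 and 14.5 FPKM in Tle4 CThPN and 25.4 and 6.64 in Cux2 CPN, and Shb was at 19.001 and 31.3 against 11.7 and 6.01.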

How the results depend on the processing

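No paired analysis was possible because the table holds 1 value per group and no column for a single library, and for the same reason no library could be left out. The 105 higher and 46 lower genes numbered 40 and 12 at a limit of 1.5 log2, 606 and 493 at 0.5, and 42 and 16 with a minimum of 30 FPKM. Without a minimum 185 were higher. With protein-coding genes over 300 nt alone, which leaves out short RNAs, longer non-coding genes and genes not annotated, 30 were lower. Of the 7405 genes with a GC class 85 were higher and 30 lower before centring and 63 and 31 after it, and of genes with 10 FPKM at both ages 42 were higher and 14 lower. Centring, the minimum at both ages and leaving out short RNAs were chosen after the data were examined. Differences between the classes of at least 1 log2, 162 in all, numbered 60 with a minimum of 30 FPKM and 104 with 10 FPKM at both ages. A pseudocount of 0.1, scaling by median ratios and leaving out short RNAs kept the counts within 1.5 times. With scaling, however, 91 genes were higher and 60 lower, so that the excess of higher genes was smaller. No gene past 1 log2 that could be followed by its symbol turned its sign under the pseudocount, scaling or GC centring. None could, since a pseudocount keeps the sign, and scaling and centring shifted changes by far less than 1 log2. Of 131 such genes 117 stayed past 1 log2 with scaling, while of 115 with a GC class 78 did after centring. The median of all members (0.06) was -0.0027 with scaling. Among the medians of the 38 gene lists with a member, low-oxygen response (0.02) turned to -0.0467 with scaling and -0.0498 with GC centring, the glucocorticoid list (0.04) to -0.0208 with scaling and -0.0450 with centring, and the postsynaptic and glutamatergic lists (0.08 and 0.08) to -0.0057 and -0.0180 with centring. With 10 FPKM at both ages the AMPA, NMDA and kainate list (-0.13) turned to 0.18 and the GABA list (0.14) to -0.0434. The cause was not tested. At 1 value per group, small differences cannot be told from the spread between libraries.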

Other observations

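Other gene groups differed in their direction across birth. Of 22 genes of the low-oxygen response 11 were higher and 11 lower (median 0.02, -0.0498 after centring on GC classes and 0.15 over the 19 at 10 FPKM at both ages), with 3 past 0.5 log2 upward, against 7.89% of members, and 2 downward, against 6.42%. Of 12 genes for the use of ketones, lactate and fatty acids 8 were higher, against 57.8% of all members, with a median of 0.20 (0.11 after centring), none past 0.5 log2 upward and 1 downward. The 12 imprinted genes split evenly (median -0.02, or -0.35 over the 10 that could be centred on GC classes). Of 13 histone genes 9 were lower, with a median of -0.23 (-0.40 after centring), and Hist1h1c, a linker histone, was at 10.6, 4.54, 10.5, 12.1, 13.5 and 19.8 FPKM over the 6 ages. Astrocyte markers measured in the neurons were higher at P1 in all 4 members (median 0.67, and 0.58 in Cux2 CPN), with Apoe, a lipid carrier, at 15.4 and 31.7 FPKM and Clu, clusterin, at 57.3 and 105, and the summed level of the list was 1947 FPKM at P21.

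Promoter windows were also read for elements of the activity and clock lists. The cAMP response element TGACGTCA was present in 2 of 11 immediate early genes with a window, Dusp1 and Ppp1r15a, for 2.03% of all symbols and for 4.11% of the measured members with a window. The E-box CACGTG was found in 3 of 10 clock genes, Ciart, Cry1 and Tef, for 8.09% of all symbols and for 12.8% of the measured members. Both letter strings read the same on either strand, and neither count was tested.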
